A study of Mus musculus with 6 samples.

Results

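The secreted Wnt antagonists measured here were 9 genes chosen by name: the secreted Frizzled-related proteins Sfrp1, Sfrp2, Sfrp4, Sfrp5 and Frzb (also called Sfrp3), the Dickkopf proteins Dkk1, Dkk2 and Dkk3, and Wnt inhibitory factor 1, Wif1. They make up 9 of 20676 named genes, with 1 probe each among 55681 probes. RNA came from heart fibroblast cultures and tail fibroblast cultures of male C57/Bl6-J mice, 8 weeks old in the sample labels, none of them carrying a named mutation or given a named drug. Heart tissue and skinned tail were digested with enzymes, and after 5 days on the dish total RNA was taken, labelled with Cy3 and hybridised to 1-colour Agilent arrays. There were 6 arrays, heart 1, 2 and 3 and tail 1, 2 and 3, and each culture was pooled from 2 animals. The labels name no sort or marker gate, so a culture held whatever cells of the digest grew on the dish. In such bulk RNA, fewer cells of a type and less RNA per cell cannot be told apart.

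Wnt proteins are secreted lipid-modified ligands that bind Frizzled receptors and the co-receptors Lrp5 and Lrp6, which keeps beta-catenin from being degraded so that it can act with TCF/LEF factors on target genes. Secreted antagonists work outside the cell. The Sfrp proteins carry a cysteine-rich domain like that of the Frizzled receptors and bind Wnt proteins, as Wif1 does through a domain of its own. Dkk1 and Dkk2 bind Lrp5 and Lrp6 instead, with the Kremen proteins as partners, while Dkk3 is a divergent member of its family with no settled role at those receptors. Several of these genes are known to be made by fibroblasts and other mesenchymal cells.

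The promoters of 4 members are shown so that their sequences stand beside their signals. No promoter sequence was at hand for Sfrp1, Sfrp4 and Dkk3. They are RefSeq sequences of GRCm38.p6, from 250 bases before to 50 bases after the annotated start, printed on the gene's strand. Frzb lies at chr2:80447347-80447646 (minus strand), Dkk2 at chr3:132085042-132085341 (plus strand), Wif1 at chr10:121033754-121034053 (plus strand) and Sfrp2 at chr3:83766071-83766370 (plus strand). Capitals mark a match on either strand to one of 3 motifs. The first is the TCF/LEF core CTTTGA, through which beta-catenin's partners bind DNA. The second is the GATA core AGATAA of the GATA factors, and the third is the TATA box, TATAAA.
Frzb: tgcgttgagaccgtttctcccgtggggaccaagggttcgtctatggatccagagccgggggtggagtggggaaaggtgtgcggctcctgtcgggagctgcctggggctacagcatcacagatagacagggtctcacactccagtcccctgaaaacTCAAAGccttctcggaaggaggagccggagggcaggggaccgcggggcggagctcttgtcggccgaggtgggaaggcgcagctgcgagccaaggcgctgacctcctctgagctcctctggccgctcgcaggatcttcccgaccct
Dkk2: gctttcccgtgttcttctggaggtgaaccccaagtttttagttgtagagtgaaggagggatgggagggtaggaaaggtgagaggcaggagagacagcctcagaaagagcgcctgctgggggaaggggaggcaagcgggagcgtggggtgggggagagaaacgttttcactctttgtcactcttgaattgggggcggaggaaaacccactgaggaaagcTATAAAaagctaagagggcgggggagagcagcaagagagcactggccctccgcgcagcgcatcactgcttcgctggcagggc
Wif1: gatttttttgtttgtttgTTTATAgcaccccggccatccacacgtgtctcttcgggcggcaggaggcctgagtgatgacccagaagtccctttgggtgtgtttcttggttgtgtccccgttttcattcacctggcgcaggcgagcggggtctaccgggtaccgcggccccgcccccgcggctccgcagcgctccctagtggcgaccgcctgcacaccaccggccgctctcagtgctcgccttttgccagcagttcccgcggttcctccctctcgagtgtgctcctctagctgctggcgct
Sfrp2: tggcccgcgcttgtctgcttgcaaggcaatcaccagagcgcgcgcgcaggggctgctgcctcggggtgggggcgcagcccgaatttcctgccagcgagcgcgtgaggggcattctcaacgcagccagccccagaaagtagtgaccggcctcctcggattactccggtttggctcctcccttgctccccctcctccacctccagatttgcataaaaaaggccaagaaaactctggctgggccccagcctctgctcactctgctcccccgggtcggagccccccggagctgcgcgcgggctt

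Each window held more CpG than the median promoter, with 20 CpG for Frzb, 11 for Dkk2, 25 for Wif1 and 22 for Sfrp2, against a median of 7 (quartiles 3 and 20) over 32851 promoters of the same length. Of these 4 promoters, Frzb had a TCF/LEF core, beginning at -95 from the start, a match held by 16% of all promoters. A TATA box began at -32 in Dkk2 and at -232 in Wif1, where 13.6% of all promoters have a match. No GATA core was found in the 4 windows, and 11.2% of all promoters hold one. E-boxes (CANNTG), which 72.3% of promoters contain, were found in Frzb and Wif1. Of the other members with a sequence, Dkk1 had 2 TCF/LEF cores and Sfrp5 had 2 GATA cores. These matches are descriptions of the letters only.

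Each value below is the log2 processed signal of a probe minus the 75th percentile of its array, called the normalized log2 signal, so that 0 is the level of that percentile. A difference is heart minus tail on that scale, and positive means higher in heart. A signal not well above background is a bound and not a level. The number of arrays limits the precision of every value.

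Before the members are compared, 2 arrays have to be described, because they ran against their labels. The array labelled heart 2 had 99.3% of its spots well above background and 2748 spots marked non-uniform, against 47.3% to 55.2% and 0 to 7 on the others. A mark of well above background separates little on that array. Its 75th percentile signal was 2321, against 385 to 613 on the others. Its median probe lay at a normalized log2 signal of -1.39, against -4.26 to -3.98 on the others. A normalized value on heart 2 is therefore not directly comparable with the same value on another array. Tcf21, which encodes a factor of the epicardium and of heart fibroblasts, had normalized log2 signals of 5.37, -2.38 and 5.28 on heart arrays 1, 2 and 3, against 5.44, -5.45 and -5.64 on tail arrays 1, 2 and 3. Hoxb13, a homeobox gene of the posterior body, had -7.04, 4.44 and -5.44 on heart arrays 1, 2 and 3, against -6.97, 6.60 and 6.76 on tail arrays 1, 2 and 3. Tail 1 thus had the values of heart 1 and 3 at both genes, and heart 2 lay nearer to tail 2 and 3. The members are therefore compared with all 6 arrays by label and without these arrays. Differences of other genes are given without these arrays only. Heart 2 was doubted from its scanner values, but tail 1 only from its gene signals, so p-values from the remaining 4 arrays are too small by an unknown amount.

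With all 6 arrays split by label, no member passed the test and 7 of the 9 had overlapping groups. Limma passed 0 of 21660 features tested (0%), with 498 at an unadjusted p under 0.05 (2.3%). Of the 5 members tested, Sfrp2 and Dkk3 were at an unadjusted p under 0.05. On the normalized scale they were the 2 whose heart arrays all lay below the tail arrays. That order held for 8.01% of tested features (the reverse order held for 2.09%). Without heart 2 alone, 0 of 22328 features passed (0%) and again no member did. Without heart 2 and tail 1, 3123 of 22661 features passed, 13.8% in either direction, with 7.48% higher and 6.31% lower in heart. Then 7 of the 9 members could be tested, and Frzb, Sfrp1 and Sfrp4 rose while Dkk2, Wif1, Sfrp2 and Dkk3 fell. Sfrp4, Dkk2 and Wif1 entered that test through the brighter group alone. The count of members that passed is therefore a description, as are the SE and p-values of Sfrp4, Dkk2 and Wif1. Dkk1 and Sfrp5 were not tested.

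**Figure D1:**
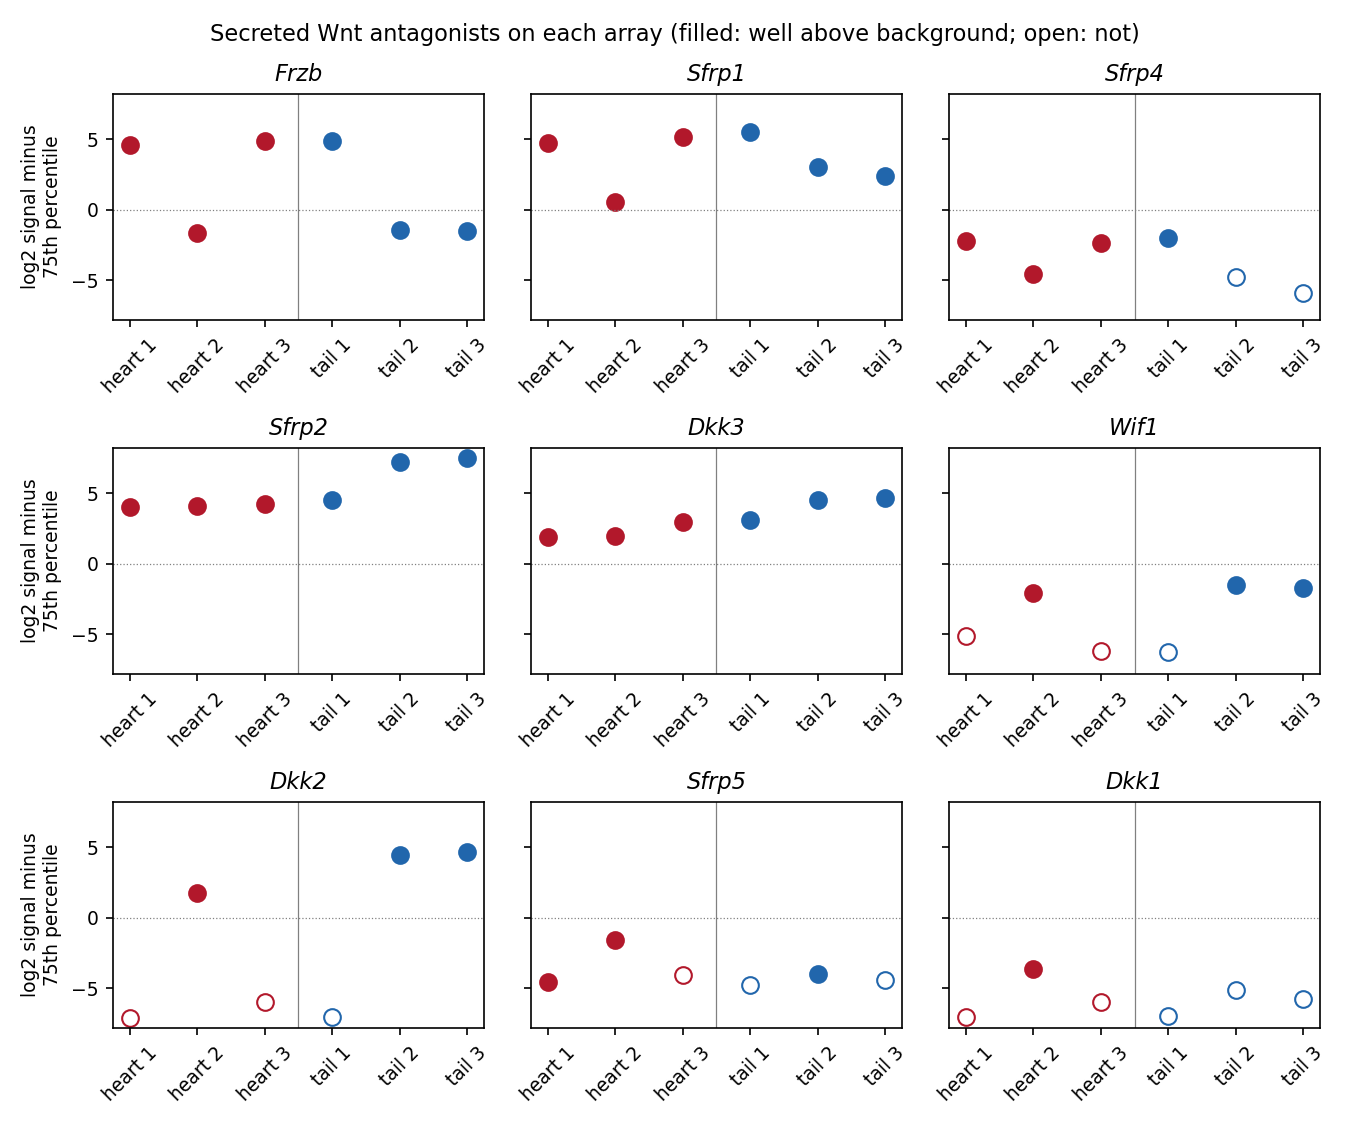
Normalized log2 signal (log2 processed signal minus the array's 75th percentile) of the 9 members on each array, heart in red and tail in blue, filled where the spot was well above background and open where it was not. Frzb, Sfrp1 and Sfrp4 are higher on heart 1, heart 3 and tail 1 than on the other arrays. Dkk2 and Wif1 are higher on heart 2, tail 2 and tail 3, but on heart 2 Wif1 lies below that array's median probe. Frzb, for example, is at 4.59 and 4.86 on heart 1 and 3 and at -1.44 and -1.51 on tail 2 and 3.

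Frzb encodes a Wnt-binding Frizzled-related protein known from cartilage and joint tissue, and among the members higher in heart it had the widest separation. It had normalized log2 signals of 4.59, -1.62 and 4.86 on heart arrays 1, 2 and 3, against 4.86, -1.44 and -1.51 on tail arrays 1, 2 and 3, well above background on all 6. The values formed 2 sets, with heart 1, heart 3 and tail 1 high and the other 3 arrays low, so the labelled groups overlapped. By label the difference was 1.97 (SE 2.12, limma adjusted p = 0.717, n = 3 per group). Without heart 2 it was 4.09 (SE 2.11, adjusted p = 0.703). On 4 arrays Frzb averaged 4.73 ± 0.20 in heart and -1.47 ± 0.046 in tail (SD, n = 2 each), a difference of 6.20 (SE 0.17, limma adjusted p = 0.000699) or 73.5-fold. The gap between the nearest heart and tail arrays of these 4 was 6.03, larger than the spread within either pair.

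Sfrp1, a Wnt-binding protein made by many stromal cells, was measured at 4.76, 0.53 and 5.21 on heart arrays 1, 2 and 3, against 5.54, 3.02 and 2.41 on tail arrays 1, 2 and 3. It was well above background on all 6 arrays, and on this scale heart 2 was the lowest of them and tail 1 the highest. By label the difference was -0.16 (SE 1.29, limma adjusted p = 0.954), and its sign turned to 1.33 (SE 0.97, adjusted p = 0.704) without heart 2. On 4 arrays Sfrp1 averaged 4.98 ± 0.32 in heart and 2.72 ± 0.43 in tail (SD, n = 2 each), and the difference was 2.27 (SE 0.29, adjusted p = 0.0124), 4.81-fold. The direction for Sfrp1 thus depends on the arrays used, and its call ended without heart 3 (adjusted p = 0.0674).

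Sfrp4, a family member known from bone and from ovarian and endometrial stroma, was dim throughout. On heart 1, 2 and 3 it had -2.22, -4.55 and -2.35, and on tail arrays 1, 2 and 3 it had -1.97, -4.77 and -5.93, the last 2 not well above background. Tail 1 was the highest array and the groups overlapped, with a difference by label of 1.18 (SE 1.05, limma adjusted p = 0.717). Without heart 2 the difference was 1.94 (SE 1.18, adjusted p = 0.703), without tail 1 it was 2.31, without tail 3 it was 0.33, and under median scaling it was 0.25. On 4 arrays Sfrp4 was at least 3.92-fold higher in heart (measured difference 3.06, SE 0.41, limma adjusted p = 0.0145). For a dim group such a bound sets the brighter group's mean against the lowest signal that counts as well above background, or the probe's own where that is higher. It is not a strict limit, because some probes not well above background lie above that lowest signal. Under normexp background correction, with its offset of 50, the differences of Sfrp4, Dkk2 and Wif1 were smaller than their bounds. The call ended without heart 1 (adjusted p = 0.0695) or heart 3 (0.0814), and normexp background correction put the 4-array difference at 1.00 (adjusted p = 0.0251).

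Sfrp2, a Wnt-binding protein common in dermal and other connective tissue fibroblasts, went the other way. It had 4.06, 4.10 and 4.24 on heart arrays 1, 2 and 3, against 4.56, 7.26 and 7.53 on tail arrays 1, 2 and 3, all well above background. On this scale the 3 heart arrays, heart 2 included, averaged 4.13 ± 0.093 (SD) and lay below every tail array. The labelled groups thus did not overlap, but tail 1 stood near heart. By label the difference was -2.32 (SE 0.77, limma adjusted p = 0.717), and without heart 2 it was -2.30 (SE 0.96, adjusted p = 0.703). On 4 arrays Sfrp2 averaged 4.15 ± 0.13 in heart and 7.40 ± 0.19 in tail (SD, n = 2 each), a difference of -3.25 (SE 0.18, adjusted p = 0.00169), 9.49-fold lower in heart. Sfrp2 therefore opposed Frzb and Sfrp1 on these 4 arrays, although all 3 belong to the Wnt-binding family.

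Sfrp5, a family member known from adipose tissue, was near the detection limit. Its values were -4.53, -1.61 and -4.05 on heart arrays 1, 2 and 3, against -4.80, -3.99 and -4.39 on tail arrays 1, 2 and 3, and it was well above background on heart 1, heart 2 and tail 2. Heart 2 was the highest array, the other 5 spanned 0.81, and the groups overlapped with and without heart 2 and tail 1. On heart 2, however, Sfrp5 lay below the median probe of the array (-1.39). Neither group met the filter on dim probes, so Sfrp5 was not tested.

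Dkk2, which binds Lrp5 and Lrp6 and acts as a weak agonist or an antagonist depending on the cell, had the largest difference of the 9 on 4 arrays. It had -7.11, 1.77 and -6.00 on heart arrays 1, 2 and 3, against -7.01, 4.46 and 4.66 on tail arrays 1, 2 and 3. On heart 1, heart 3 and tail 1 it was not well above background, while tail 2 and tail 3 gave clear signals. Heart 2 was marked well above background too, a mark that separates little on that array. Each labelled group thus held arrays with and without the mark, and Dkk2 was not tested by label. The mean difference over all 6 arrays was -4.48. On 4 arrays Dkk2 was at least 529-fold lower in heart (measured difference -11.11, SE 0.40, limma adjusted p = 0.000932), with the 2 tail arrays at 4.56 ± 0.14 (SD). In the authors' deposited table of 433 probes Dkk2 was the only one of the 9 members, with a log2 fold change of -9.80, rank 4 in size among the 172 probes lower in heart. Normexp background correction put the measured 4-array difference of Dkk2 at -7.58, a smaller fold than the bound, and the call held.

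Wif1, which binds Wnt proteins directly, followed the same arrays as Dkk2 at a smaller distance. Its normalized log2 signals were -5.14, -2.08 and -6.16 on heart arrays 1, 2 and 3, against -6.25, -1.51 and -1.75 on tail arrays 1, 2 and 3. It was not well above background on heart 1, heart 3 and tail 1, and was not tested by label, where the mean difference was -1.29. On 4 arrays Wif1 was at least 7.27-fold lower in heart (measured difference -4.02, SE 0.38, limma adjusted p = 0.00565). Heart 2 differed by -0.46 from the mean of tail 2 and 3. On heart 2, however, Wif1 lay below the median probe of the array (-1.39). On tail 2 and 3 it lay above the median probe (-4.17 and -4.08). The closeness of heart 2 is thus not a measure of a tail-like signal. Under normexp the measured 4-array difference was -1.79, a smaller fold than the bound, and without a filter on dim probes the call ended (adjusted p = 0.0667).

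Dkk3, the divergent Dickkopf, had 1.91, 1.99 and 2.95 on heart arrays 1, 2 and 3, against 3.14, 4.53 and 4.66 on tail arrays 1, 2 and 3, all well above background. On this scale all heart arrays lay below all tail arrays, but heart 3 and tail 1 lay close together. By label the difference was -1.82 (SE 0.57, limma adjusted p = 0.717), and without heart 2 it was -1.68 (SE 0.59, adjusted p = 0.703). On 4 arrays Dkk3 averaged 2.43 ± 0.73 in heart and 4.59 ± 0.098 in tail (SD, n = 2 each), a difference of -2.16 (SE 0.38, adjusted p = 0.0288), 4.48-fold lower in heart. Its heart pair was spread more widely than its tail pair, and the call ended without tail 2 (0.0842) or tail 3 (0.0869).

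Dkk1, the best known inhibitor of Lrp5 and Lrp6, was not well above background on any array other than heart 2. It had -7.06, -3.64 and -5.97 on heart arrays 1, 2 and 3, against -6.95, -5.09 and -5.80 on tail arrays 1, 2 and 3. Dkk1 and Dkk2 were thus alike in having no measurable signal on heart 1 and 3, and unlike on tail 2 and 3, where Dkk2 alone was detected. No fold is given for Dkk1, because both groups were below background.

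**Figure D2:**
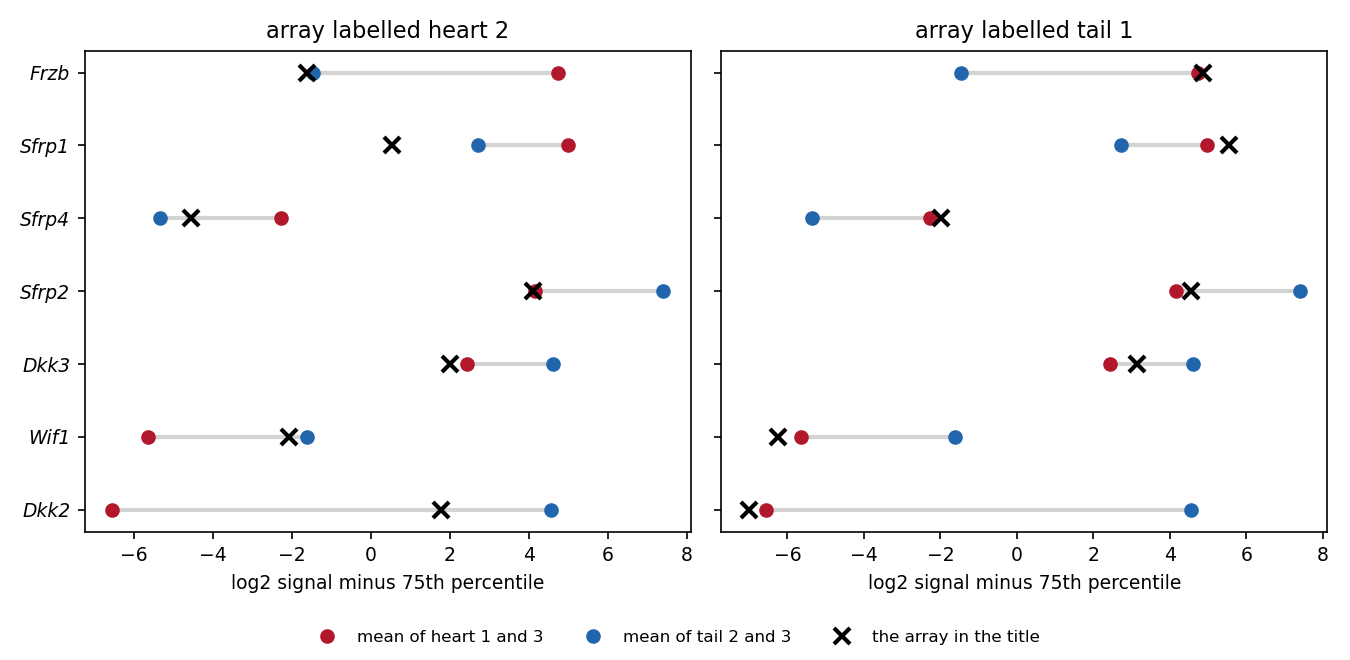
Position of the array labelled heart 2 (left panel) and the array labelled tail 1 (right panel), as black crosses, against the mean of heart 1 and 3 (red) and of tail 2 and 3 (blue) for the 7 members tested on 4 arrays, in normalized log2 signal. Tail 1, set aside for its gene signals, lies nearer to heart at 7 of 7, and heart 2 lies nearer to tail at 5 and nearer to heart at Sfrp2 and Dkk3.

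Across the 7 members tested on 4 arrays, tail 1 lay nearer to the mean of heart 1 and 3 at 7, with distances from 0.13 for Frzb to 0.71 for Dkk3. Heart 2 lay nearer to the mean of tail 2 and 3 at 5 of the 7. The exceptions were Sfrp2 and Dkk3, where heart 2 differed from the mean of heart 1 and 3 by -0.05 and -0.44. Both placings depend on the scaling. In processed signal before scaling, Dkk3 had 9245 on heart 2. It had 2287 and 3513 on heart 1 and 3 and 8873 and 11613 on tail 2 and 3. Sfrp2 had 39759 on heart 2, 10117 and 8576 on heart 1 and 3, and 58949 and 84801 on tail 2 and 3. Tail 1 lay below heart 2 at both (5407 for Dkk3, 14457 for Sfrp2), so the separation by label depends on the scaling too. At Sfrp1 heart 2 lay below all the other arrays on the normalized scale, with a difference of -2.18 from the mean of tail 2 and 3. That placing depends on the scaling as well. Before scaling, Sfrp1 had 3356 on heart 2, 3123 and 2439 on tail 2 and 3, and 16405 and 16805 on heart 1 and 3. On the normalized scale the members thus did not place heart 2 with either tissue as a set. Frzb, Sfrp4 and Wif1 lay below that array's own median. Frzb and Wif1 lay above the median probe on tail 2 and 3, so the closeness of heart 2 at both is not a measure of a tail-like signal. The members tested in all 3 sets of arrays differed in how far leaving out arrays moved them. Sfrp2 (-2.32, -2.30 and -3.25) and Dkk3 (-1.82, -1.68 and -2.16) kept their sign. Frzb (1.97, 4.09 and 6.20) and Sfrp4 (1.18, 1.94 and 3.06) kept theirs too, while Sfrp1 changed sign.

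**Figure D3:**
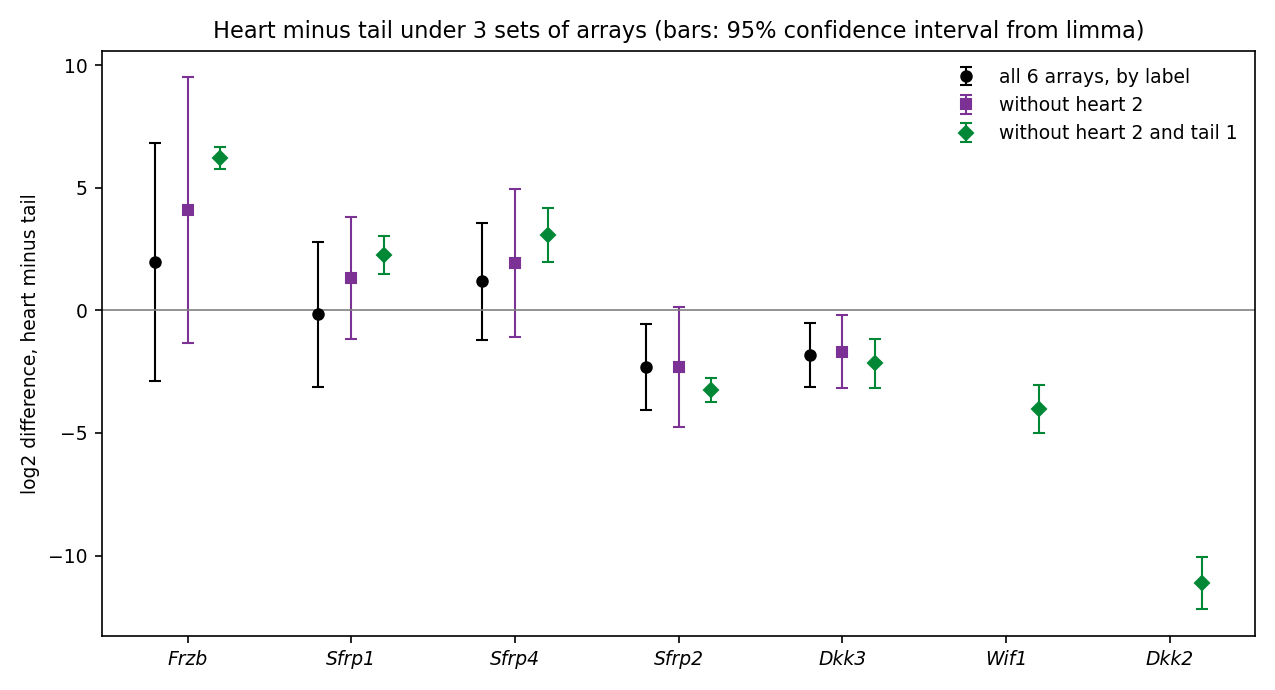
Heart minus tail log2 difference of the members from limma with 95% confidence intervals, for all 6 arrays by label (black), without heart 2 (purple) and without heart 2 and tail 1 (green). Dkk2 and Wif1 were tested only on 4 arrays; the intervals of Frzb, Sfrp1 and Sfrp4 span 0 by label and do not on 4 arrays, where the differences are 6.20, 2.27 and 3.06.

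Likeness of pattern was measured for the 3 members with the widest range over the 5 arrays other than heart 2, which were Dkk2, Frzb and Wif1. Each gene was centred on its own mean, and the root mean square difference of the normalized log2 signal over the 5 arrays was taken against 13683 named genes. Among the nearest to Dkk2 were Thbs4, a matrix protein of tendon (0.905), and Hoxb13 (0.947). Nearest to Frzb were Hsd11b1, an enzyme that reactivates glucocorticoid (0.177), Plekha7, a junction protein (0.221), and Scel (0.235). Nearest to Wif1 were Cav1, the coat protein of caveolae (0.119), the neuropeptide gene Npy (0.17) and Ltbp2, a matrix protein of elastic fibres (0.198). Dkk2 and Wif1 were not well above background on 3 of these 5 arrays, heart 1, heart 3 and tail 1, so their distances and the order of their neighbours rest partly on values that are bounds. With 5 arrays in 2 sets, many genes share such a pattern.

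The other genes of the pathway were read from the same 4 arrays, 86 genes in 6 lists, of which 59 were tested, 4 rose and 18 fell, and none of 54 tested passed by label. Over all features tested, 7.48% were higher and 6.31% lower on 4 arrays, with a median difference of -0.07. The receptors that Dkk proteins bind did not pass, with differences on 4 arrays of -0.18 for Lrp5 (SE 0.16, adjusted p = 0.512), -0.20 for Lrp6 (SE 0.15, adjusted p = 0.442) and -0.20 for Kremen1 (SE 0.15, adjusted p = 0.421). Kremen2 was not well above background on the 4 arrays. Of 14 tested receptors, Fzd4 (5.23-fold) and Fzd6 (at least 2.74-fold) rose, Ror2 (difference -2.25) and Fzd7 (-1.44) fell, and 10 did not pass (list median -0.19). Of 7 tested Wnt ligands 0 rose and 3 fell, Wnt16 (difference -2.05), Wnt5a (-2.02) and Wnt5b (-1.27), while 12 of the 19 were not tested.

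Large differences also lay in the R-spondin axis, whose secreted ligands and Lgr receptors raise the number of Frizzled receptors at the cell surface. Of 6 tested genes 4 fell and 1 rose (list median -4.48). Lgr5 was at least 109-fold and Rspo2 at least 126-fold lower in heart, Rspo3 differed by -6.17 (SE 0.22, adjusted p = 0.00093) and Rspo1 by 3.12 (SE 0.18, adjusted p = 0.00176). Rspo3 had -2.19, 1.29 and -1.68 on heart arrays 1, 2 and 3, against -1.34, 4.25 and 4.22 on tail arrays 1, 2 and 3, so the R-spondin ligands, like the antagonists, went both ways. Among 7 tested extracellular antagonists outside the 9, Apcdd1, a membrane inhibitor, rose (6.44-fold). Draxin (at least 3.48-fold lower in heart), Tpbg (difference -2.28) and Igfbp4 (-1.94) were among the 4 that fell.

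Of 17 tested genes of Wnt secretion and signal transduction, 1 passed the test, Tcf7l2, a TCF/LEF factor (difference -0.93, adjusted p = 0.0251), and 16 did not pass (list median -0.22). Of 8 tested target genes 0 rose and 4 fell (list median -1.26). Axin2, a feedback inhibitor and standard target, was at least 3.43-fold lower in heart (limma adjusted p = 0.00924), and Lef1, both a target and a TCF/LEF factor, at least 4.12-fold (adjusted p = 0.00244). Axin2 had -5.33, -2.76 and -4.82 on heart arrays 1, 2 and 3, against -4.47, -2.48 and -2.94 on tail arrays 1, 2 and 3. Ccn4 (difference -2.52) and Ccnd1 (-1.56) also fell. Like Dkk2 and Wif1, the genes Axin2, Lef1, Lgr5, Rspo2 and Draxin were not well above background on heart 1 and 3 and entered the test through the tail pair alone, as Fzd6 did through the heart pair, so their lists' counts are descriptions too.

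**Figure D4:**
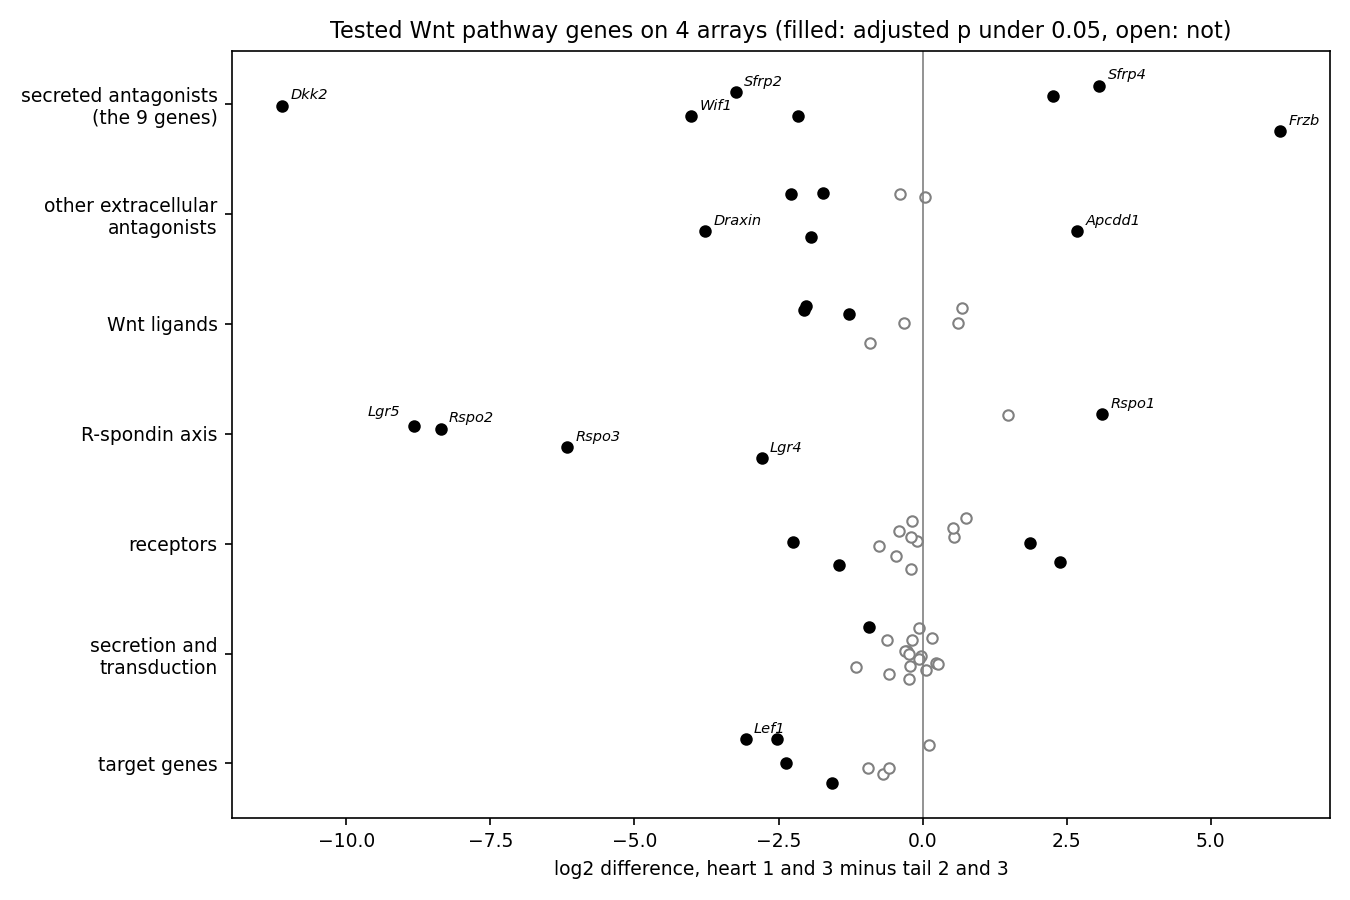
Log2 difference, heart 1 and 3 minus tail 2 and 3, of each tested gene by list, filled where limma's adjusted p was under 0.05 and open where it was not, with the vertical scatter only to separate points. The secreted antagonists run from -11.11 for Dkk2 to 6.20 for Frzb, and 16 of the 17 genes of secretion and transduction are open points.

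Markers of cell types were read beside these results, since the cultures were not sorted. All 12 fibroblast markers were well above background on the 6 arrays, and on 4 arrays 5 were higher and 2 lower in heart. Of 10 endothelial markers 8 rose and 0 fell, and Tie1, Cldn5, Robo4 and Emcn were not well above background on tail 2 and 3. Summed over the list, the signal in units of each array's 75th percentile was 18.6 and 25.4 on heart 1 and 3, compared with 26.2 and 19.6 on tail 2 and 3, so the sums overlapped. Kdr, which did not pass (difference -0.43), made up 73.2% and 72.4% of the sum on heart 1 and 3 and 94.6% and 93.4% on tail 2 and 3. Of 9 leukocyte markers 6 rose and 0 fell, with sums of 74.0 and 134.1 on heart 1 and 3, compared with 80.0 and 59.2 on tail 2 and 3, sums that overlapped as well. The single markers that rose in these 2 lists, though not the lists' sums, moved with Frzb, Sfrp1 and Sfrp4. On the side of Dkk2, Wif1, Sfrp2 and Dkk3, 4 of 4 tendon markers fell in heart, with Tnmd and Mkx not well above background on heart 1 and 3 and sums of 0.547 and 0.399 on heart 1 and 3, compared with 475.3 and 437.8 on tail 2 and 3, where Thbs4 alone made up 97.8% of the sum on each array. Of 6 skeletal muscle markers 2 were tested and both fell, Myh3, an embryonic myosin (at least 16.0-fold lower in heart, limma adjusted p = 0.00941), and Myog, a muscle regulator (at least 2.90-fold, adjusted p = 0.0156). Myf5, Pax7 and Ckm were not well above background on any array other than heart 2. The list's sums were 0.0734 and 0.101 on heart 1 and 3, compared with 0.568 and 1.58 on tail 2 and 3. No marker of this list was well above background on heart 1 or 3, so their sums are bounds and not levels. Of 6 smooth muscle markers 4 fell, with sums of 666.3 and 606.6 on heart 1 and 3, compared with 1565 and 1287 on tail 2 and 3. Of 5 tested cartilage and bone markers 1 rose and 3 fell, of 4 tested mesothelial markers 2 rose and 1 fell, and of 3 tested Schwann cell markers 1 fell. In the cardiomyocyte list, Actn2 and Ryr2 were not well above background on any array other than heart 2. Of its 5 tested genes, Tnnt2, cardiac troponin T, rose (19.1-fold, adjusted p = 0.0095), Mb, myoglobin, fell (at least 4.24-fold lower in heart, adjusted p = 0.00919), and 3 did not pass. Several of these markers entered the test through the brighter pair alone. Among them were Tie1, Cldn5, Robo4 and Emcn through the heart pair, and Tnmd, Mkx, Myh3, Myog and Mb through the tail pair. The counts of these lists are therefore descriptions. Over all features tested on 4 arrays, 7.48% were higher and 6.31% lower in heart. With all 6 arrays by label, no marker of these lists passed. The part of these cells in the members' differences was not tested.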

How the data were processed

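RNA of 6 fibroblast cultures was measured on 1-colour Agilent arrays, 1 array per culture, all on 1 slide. Per the file headers, the deposited spot intensities were read with Agilent Feature Extraction 11.0.1.1 after background subtraction and carry no scaling between arrays. Further deposited columns used here were median spot and local background intensities and flags (other kinds of value, 0 or 1). A table deposited by the authors gives log2 fold changes and linear fold ratios of heart over tail for 433 probes; its normalization and choice of arrays are not given in the sources used here. Here, control spots and outlier spots were left out, spots of a probe were averaged, and log2 processed signal was taken minus each array's 75th percentile over probes. Probes were kept where every array of one group or of the other had them well above background, with the probe of highest mean for each named gene and every unnamed probe as a feature of its own. RefSeq accessions named 27235 probes through a GRCm38.p6 gene table, the deposited table named 27, and 28419 had no symbol.

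Heart was compared with tail by limma 3.58.1 in R 4.3.3 (lmFit, then eBayes), with two-sided p-values adjusted by Benjamini-Hochberg over all features tested and a threshold of 0.05, and the procedure was tested on simulated data. Python 3.11.15, pandas 2.3.3 and matplotlib 3.10.9 were used otherwise. The alternatives were other scalings, normexp (offset 50, run on median spot signals, as mean signals are not used here), other filters, the mean of a gene's probes, an intensity trend with robust estimation, slide row or replicate number as a block, and leaving out arrays. The members, gene lists, tests and sets of arrays were chosen with earlier results of these data known. All 9 members are named. Of each list of other pathway genes the text names at most the 4 largest differences that passed on 4 arrays, and Axin2, Lef1, Lrp5, Lrp6, Kremen1 and Kremen2 whatever their values. For 3 members the 3 named genes of most similar pattern were sought, and 1 of these genes is not reported here. Marker genes, named where they were below background, passed the test or carried a list's sum, were chosen after their values were seen. The sex of the animals and the strain were the same in both groups. The cultures are described as biological replicates, so p-values measure the spread between cultures. Deviations of same-numbered heart and tail arrays from their group means had correlations across features of 0.182, 0.239 and -0.315. Those means held heart 2 and tail 1, so the correlations can neither show nor exclude pairing. The replicate numbers were not taken to pair the samples.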

Additional observations from a re-analysis of the deposited data

How the results depend on the processing

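By label, 0 features and 0 members passed under other scalings, normexp, both other filters, the mean of a gene's probes, the slide row block and the trended robust fit. With the replicate block 214 features passed by label (178 higher, 36 lower) and 0 members. Leaving out single arrays gave 0 to 327 features, the 327 without heart 1, and 0 to 0 members. Without heart 2 and tail 1 together 3123 features and 7 members passed, and the differences of Sfrp2 (-3.25), Sfrp4 (3.06), Frzb (6.20) and Dkk3 (-2.16) then passed. By label Sfrp1 turned from -0.16 to 0.077 under quantile normalization, 0.78 without tail 1, 1.33 without heart 2 and 2.27 without both (single arrays left out gave -1.01 to 1.33), and Sfrp4 turned to -0.091 under normexp; the cause was not tested. Median scaling moved the median by-label difference of all features from -0.39 to -1.32.

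On heart 1 and 3 against tail 2 and 3, 448 features (226 higher, 222 lower) and 3 members passed with no filter, where 49087 features were tested, and 4 members with signal required on all 4 arrays, where only 4 were tested. Leaving out single arrays gave 1711 to 4096 features, the 1711 without tail 3, and 5 to 6 members; the array left alone in its group is then assumed to vary like the others. With no filter the adjusted p was 0.126 for Sfrp1, 0.125 for Sfrp4, 0.204 for Dkk3 and 0.0667 for Wif1. Frzb and Sfrp2 held their calls under every alternative run, with ranges of 5.60 to 6.34 and -3.38 to -3.11. Dkk2 ranged from -11.67 to -7.58, and its calls are descriptions, because its heart pair was not well above background. The filter for signal on all 4 arrays left Dkk2, Wif1 and Sfrp4 untested. No paired analysis was possible for these 4 arrays because the groups share only 1 replicate number. Dkk2, Wif1 and Sfrp4 in the dimmer group, and Dkk1 and Sfrp5 in both, are limited by signal over background.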

Other observations

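In the authors' deposited table, Dkk2 stood beside 6 other genes of the Wnt pathway lists, all lower in heart. Of the 433 probes there, 172 were lower and 261 higher in heart. Genes were sought there by symbol, so an entry under another name would be missed. Their log2 fold changes in the authors' deposited table were -7.10 for Rspo2, an R-spondin ligand, -3.67 for Wnt16, -2.87 for Lef1, -2.08 for Rnf43, a ligase that removes Frizzled receptors, -1.59 for Trabd2b and -1.10 for Wnt5b. The probe read here for Rnf43, which was not matched to the authors' entry, was not well above background on any array other than heart 2. Neither Frzb nor Sfrp1, Sfrp4, Sfrp2, Dkk3 or Wif1 is listed there.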
